A study of Homo sapiens with 10 samples.

Results

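The mRNA levels of 8 genes that hold cell-cycle kinases in check were examined in drug-resistant, tumor spheroid (TS) and 2D-cultured lung cancer cells. The genes were chosen by symbol, with earlier results of these data known. The set holds CDKN1A, CDKN1B and CDKN1C of the CIP/KIP family, CDKN2A, CDKN2B, CDKN2C and CDKN2D of the INK4 family, and CDKN3. They are 8 of the 46427 genes listed. CDKN3 carries the family's symbol but encodes a dual-specificity phosphatase that acts on CDKs, and belongs to neither inhibitor family.

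The libraries were made from poly(A) RNA of H460 and A549, which are established human lung cancer cell lines. Of H460 cells, 3 libraries came from untreated parental cells in 2D culture, 1 from cisplatin-resistant (CR), 2 from paclitaxel-resistant (PR) and 1 from doxorubicin-resistant (DR) cells. By the study's methods, cells were exposed for 3 days to cisplatin at 4 µM, to paclitaxel at 5 nM or to doxorubicin at 0.5 µM, with a recovery of 3 days after the drug was removed, and RNA was taken from survivors able to attach again. The survivors are thus those of a single short exposure. TS cells, called CTC in the sample labels, were kept in sphere culture on a non-adhesive surface. They gave 1 library of H460 and 1 of A549, and A549 cells in 2D culture gave 1 more. By the same methods the medium differed too, with serum listed for 2D culture only, and EGF, basic FGF and B27 for TS culture only. TS cells also went through at least 3 passages. Each difference of TS from 2D cells below therefore covers surface, medium and passage together, and their separate parts were not tested. CR, DR, each TS culture and A549 2D rest on 1 library each, and the labels do not say that the parental or PR libraries came from separate cultures, so that p-values measure only the spread between these libraries.

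CDKs drive the cell cycle once a cyclin is bound. INK4 proteins (p16INK4A, p15INK4B, p18INK4C and p19INK4D) bind CDK4 and CDK6 and keep D-type cyclins away, whereas CIP/KIP proteins (p21, p27 and p57, from CDKN1A, CDKN1B and CDKN1C) bind complexes of cyclin and CDK and chiefly restrain CDK2. CDKN1A is controlled largely at transcription, and p27 largely through its destruction by the SCF-SKP2 ubiquitin ligase. Both lines are catalogued as lacking CDKN2A, and their DNA was not examined here.

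The reads counted on genes numbered 59499787 to 89541774 per library, with a median of 71656787. The library names come in 2 forms, without a hyphen after the first word (parental 1 and 3, PR 1, both TS libraries and A549 2D) and with one (parental 2, CR, DR and PR 2), and values within each form are given beside the drug results. The epithelial keratins KRT8 and KRT18 were at an FPKM (fragments per kilobase of transcript, scaled to library size) of 190.4 or more in all 10 libraries. The other keratins listed differed between the lines. KRT7 was at 2.37 to 11.2 FPKM in H460 libraries, and at 1221 and 372.3 in A549 2D and TS cells. KRT19 was at 138.3 to 738.3 in H460 libraries, and at 3.57 and 68.3 in A549 2D and TS cells. EPCAM and CDH1, which usually mark epithelial cells, were at or near 0 in H460 cells, at 0 to 0.114 and 0 to 0.0266 FPKM, and at 0.923 and 1.04 (EPCAM) and at 9.29 and 11.9 (CDH1) in A549 2D and TS cells. The summed FPKM of 8 stromal, endothelial and blood markers was 3.02 to 11.1 in parental and 12.5 to 20.4 in drug-resistant cells, carried by CD14 and LUM. PTPRC, CD3E, PECAM1, CDH5 and COL1A2 were at 0 in every parental library and at most at 0.157 FPKM in drug-resistant ones, and 1 of the 3 markers that could be tested there, DCN (at most 0.319 FPKM), passed as higher. In the fit that separates the drugs, 4 of 6 passed as higher in PR cells (COL1A2, DCN, PECAM1 and PTPRC) and 1 of 6 in CR and DR cells (PTPRC), each of them at 0.319 FPKM or less. Of all genes tested, 18.5% passed as higher over all drugs, 19.4% in PR cells and 12.5% in CR and DR cells. The highest sum of all was in H460 TS cells, at 35.3, of which LUM made up 26.6 FPKM against 0.237 to 2.76 in parental cells (TS against 2D in both lines, adjusted p = 0.130 by edgeR). The part of these markers in the results was not tested.

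The promoters of the 3 genes with the largest changes in drug-resistant cells are shown, since these genes moved in opposite directions. Each is the 250 bases before a transcription start annotated by RefSeq, read 5′ to 3′ on the gene's strand, in GRCh38.p14, and 7 of the 8 genes matched an entry. Capitals mark every match, on either strand, to 6 short motifs. The cell cycle genes homology region (CHR) was searched as TTTGAA, and the site of E2F factors as TTTNGCGC. Promoter elements near the start were searched as CCAAT for the box of that name, as GGGCGG for the GC box, and with the letters TATAAA for the TATA box. The E-box, a site of MYC and related factors, was searched as CACGTG.
CDKN1A, chr6:36678464-36678713, plus strand: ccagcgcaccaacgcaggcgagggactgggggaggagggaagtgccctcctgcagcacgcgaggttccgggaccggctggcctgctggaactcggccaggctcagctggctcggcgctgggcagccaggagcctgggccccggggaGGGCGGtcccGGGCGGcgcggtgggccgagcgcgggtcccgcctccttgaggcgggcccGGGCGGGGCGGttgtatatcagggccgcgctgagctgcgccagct
CDKN2C, chr1:50968456-50968705, plus strand: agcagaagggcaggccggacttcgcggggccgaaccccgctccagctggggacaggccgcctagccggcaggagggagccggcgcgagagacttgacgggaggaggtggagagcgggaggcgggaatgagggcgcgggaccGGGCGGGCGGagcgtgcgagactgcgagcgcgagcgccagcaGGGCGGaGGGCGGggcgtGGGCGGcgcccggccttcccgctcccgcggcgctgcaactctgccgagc
CDKN3, chr14:54396757-54397006, plus strand: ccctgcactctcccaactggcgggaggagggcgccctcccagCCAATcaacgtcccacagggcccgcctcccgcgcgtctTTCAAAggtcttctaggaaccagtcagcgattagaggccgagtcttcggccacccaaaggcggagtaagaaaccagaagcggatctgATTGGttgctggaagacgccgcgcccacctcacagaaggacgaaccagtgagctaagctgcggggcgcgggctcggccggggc

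The CDKN1A window held 4 GC boxes, starting 104, 94, 45 and 40 bases before the start, of which the last 2 overlap by 1 base. The listed span of CDKN1A begins upstream of this window, at 36676463, so a start there is not covered. The CDKN2C window shown, at 1 of 3 annotated starts, held 5 GC boxes, and the first 2 of them overlap by 2 bases. It was picked as the most GC-rich of the 3. The other windows of CDKN2C differed, with a GC content of 45.6% and 48.8%, no GC box and 1 GC box, and an E-box in each, and the second also held a CCAAT box. No match to the other motifs was found in the CDKN1A window or in the CDKN2C window shown. CDKN3 had a CHR 170 bases before the start, CCAAT boxes at 208 and 83 bases, and no GC box. Of 35116 promoter windows of this length, 42.6% held a GC box, 32% a CCAAT box, 13.3% a CHR, 10.7% a TATA box, 6.34% an E-box and 1.51% the E2F site. The GC content was 76.4% for CDKN1A, 77.2% for the CDKN2C window shown and 64.4% for CDKN3, against a median of 58% over all windows, and the CpG counts were 27, 35 and 21 against a median of 11. These matches describe the letters only.

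In drug-resistant H460 cells, CDKN1A rose 16.7-fold while CDKN3 and the INK4 gene CDKN2C fell, CDKN2D fell by a smaller amount, and CDKN1B showed no difference that passed the test. CDKN2A and CDKN2B were at or near 0 counts throughout. Before any fold change, the values in each library are given below, gene by gene. In bulk RNA, fewer cells that express a gene and less of its RNA per cell cannot be told apart.

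CDKN1A (chromosome 6, 36676463 to 36687332, plus strand) encodes p21. Its FPKM was 33.0, 25.3 and 20.7 in parental 1, 2 and 3, against 654.2 in CR, 343.4 and 498.0 in PR 1 and 2, and 403.8 in DR cells. The lowest drug-resistant library lay more than 10 times above the highest parental one, and the groups did not overlap. The share of all genes whose groups do not overlap was not counted, here and below. Among all genes ranked by TPM (length-normalized values with the same total in each library), CDKN1A stood at places 1901 to 2425 in parental and 116 to 172 in drug-resistant libraries. The mean rose from 26.3 ± 6.25 (SD, n = 3) to 474.8 ± 135.4 (SD, n = 4). edgeR's quasi-likelihood test on the counts, with Benjamini-Hochberg adjustment over 18398 genes, gave a log2 fold change of 4.06 (SE 0.32, adjusted p = 0.000102), a ratio of 16.7. Within the forms of library name, the log2 ratio of mean FPKM was 3.68 (1 drug-resistant and 2 parental libraries) and 4.36 (3 and 1).

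CDKN3 (chromosome 14, 54397007 to 54420218, plus strand) was the most abundant of the 8 transcripts in parental cells. Its FPKM was 58.9, 99.5 and 42.2 in the parental libraries, and 4.76 in CR, 11.7 and 3.78 in PR 1 and 2, and 5.13 in DR cells. All 4 drug-resistant libraries lay below the lowest parental value, and PR 1 stood above the other 3. The mean fell from 66.9 ± 29.5 (SD, n = 3) to 6.35 ± 3.64 (SD, n = 4). By edgeR the log2 fold change was -3.50 (SE 0.40, adjusted p = 0.000292), which is an 11.3-fold lower level. The change within the forms of library name was -2.11 and -4.45, with PR 1 as the only drug-resistant library of the first form.

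CDKN2C (chromosome 1, 50960745 to 50974634, plus strand) encodes p18INK4C. Parental libraries held 6.87, 8.98 and 6.27 FPKM, while CR held 1.11, PR 1 and 2 held 2.04 and 1.65, and DR held 1.51. The groups did not overlap, and the counts behind the drug-resistant values were 194 to 340 reads. The mean fell from 7.37 ± 1.42 (SD, n = 3) to 1.58 ± 0.39 (SD, n = 4), with a log2 fold change by edgeR of -2.37 (SE 0.23, adjusted p = 0.00019), or 5.15-fold lower. The log2 ratio was -1.69 and -2.66 within the forms of library name.

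CDKN2D (chromosome 19, 10566460 to 10568979, minus strand) encodes p19INK4D and lay below CDKN2C in every parental library. Its FPKM was 2.13, 3.99 and 3.59 in parental 1, 2 and 3, against 2.16 in CR, 1.47 and 1.77 in PR 1 and 2, and 1.43 in DR cells. Here CR lay just above parental 1, so the groups overlapped. The log2 fold change was -1.001 (SE 0.31, adjusted p = 0.0291 by edgeR), but this call was lost when parental 2, parental 3, PR 1, PR 2 or DR was left out (adjusted p = 0.0650 to 0.0914) and with upper quartile scaling (adjusted p = 0.0700). Within the forms of library name it was -0.96 and -1.16 on the log2 scale.

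CDKN1B (chromosome 12, 12717368 to 12722369, plus strand) encodes p27. It was at 4.11, 7.26 and 3.51 FPKM in parental cells, and at 5.22 in CR, 6.76 and 6.11 in PR, and 4.09 in DR cells. All 4 drug-resistant values lay inside the parental range. The log2 fold change was 0.06, with a 95% interval of -0.49 to 0.60 (edgeR, adjusted p = 0.879). It took opposite signs within the forms of library name, at 0.83 and -0.50.

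**Figure D1:**
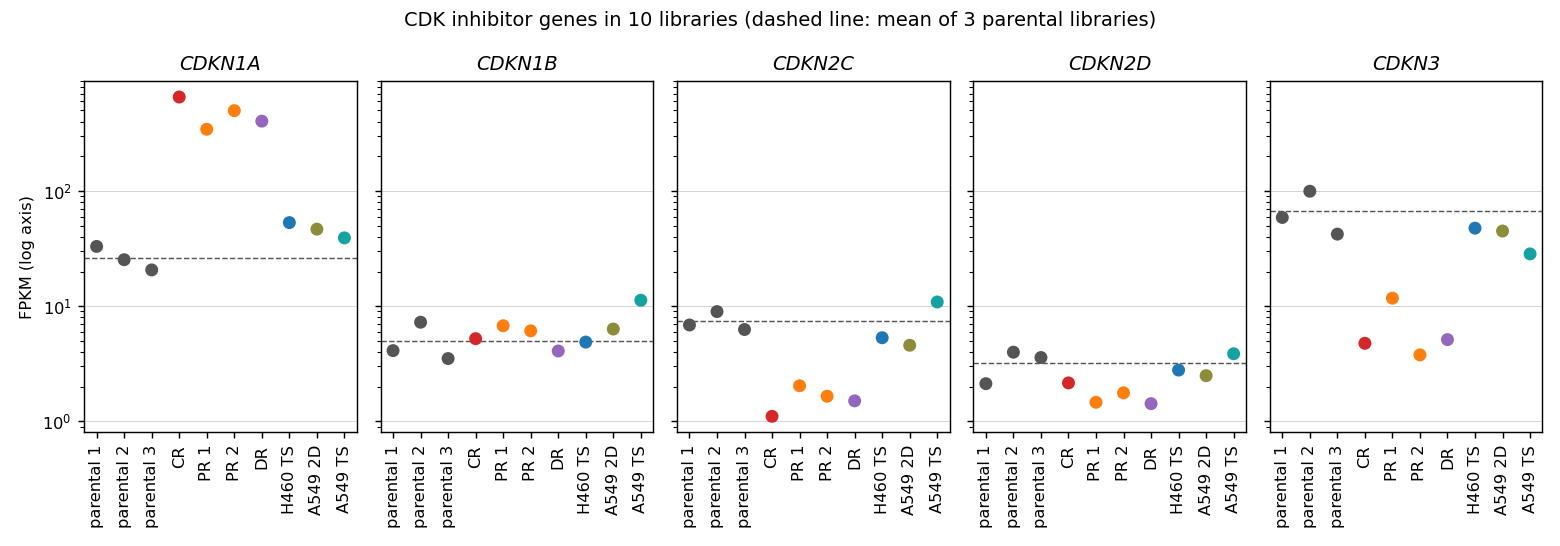
FPKM on a log axis of the 5 CDK inhibitor genes that passed the count filter, 1 point per library, coloured by group, with a dashed line at the mean of the 3 parental libraries. CDKN1A lies at 343.4 or above in the 4 drug-resistant libraries and at 53.2 or below elsewhere, while CDKN3 and CDKN2C lie lower in these 4 than in any other library.

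CDKN1C, CDKN2A and CDKN2B did not pass the filter on low counts in the drug comparison, so 5 of the 8 genes were tested there. CDKN1C (chromosome 11, 2883218 to 2885775), which encodes p57 and is imprinted, had counts of 0, 5 and 0 in parental, 10 in CR, 8 and 7 in PR, and 15 in DR libraries. The drug-resistant counts were all above the parental ones. Without the filter its log2 fold change was 2.25 (SE 1.19, adjusted p = 0.215 by edgeR), which did not pass, and with so few reads this value depends on the prior count of the fit. CDKN2A (chromosome 9, 21967752 to 21995324, minus strand), whose 1 row covers transcripts of both p16INK4A and ARF, had a count of 0 in 9 libraries and of 4 in DR. CDKN2B (chromosome 9, 22002903 to 22009313, minus strand), which encodes p15INK4B, had a count of 0 in all 10. A count of 0 allows up to 3 reads, which is 0.0335 to 0.0504 CPM (counts scaled to library size) depending on the library. That limit covers counting error only.

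Of the 5 genes tested, 1 passed as higher and 3 as lower, where 18.5% of all 18398 genes tested passed as higher and 15.3% as lower (3397 and 2823 genes). With upper quartile scaling the counts over all genes were 4210 and 2032, the median over all genes went from 0.06 to 0.23 on the log2 scale, and 1 and 2 of the 5 inhibitors passed. The make-up of the summed transcripts of the 8 genes, with the phosphatase gene CDKN3 among them, turned over with these changes. The summed TPM of the 8 genes was 182.3 to 307.9 in parental and 896.3 to 1471 in drug-resistant libraries. CDKN1A made up 17.5% to 31.4% of that sum in parental cells and 94.0% to 98.0% in drug-resistant cells. The share of CDKN3 was 55.4% to 68.6% in parental libraries and 0.714% to 3.21% in drug-resistant ones. Apart from CDKN3, which belongs to neither inhibitor family, CDKN1A held the largest share in every parental library too. CDKN2C came next there, at 6.19% to 8.23%. The ratio of CDKN1A to CDKN1B, the main CIP/KIP members, was 3.49 to 8.03 in parental and 50.8 to 125.2 in drug-resistant libraries. That of CDKN2C to CDKN2D was 1.75 to 3.23 against 0.513 to 1.39, so the groups did not overlap in either ratio. TPM is normalized for transcript length, which allows levels to be set side by side between genes.

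**Figure D2:**
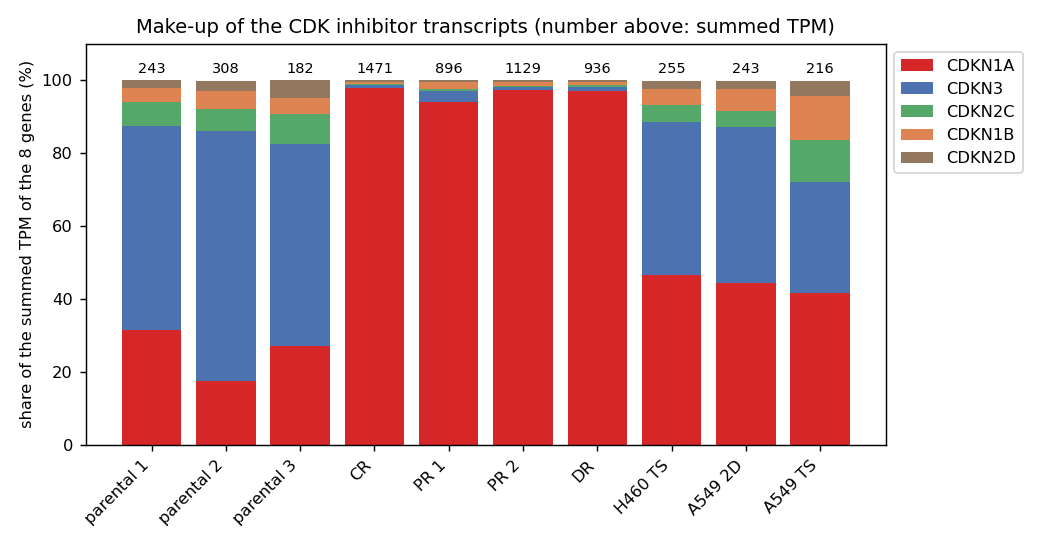
Share of each gene in the summed TPM of the 8 genes, CDKN3 included, as stacked bars per library in percent, with the summed TPM above each bar. CDKN1C, CDKN2A and CDKN2B together are too small to see. CDKN1A fills 94.0% to 98.0% of the bar in CR, PR and DR cells and 17.5% to 46.7% in the other 6 libraries.

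The drugs act on different structures. Cisplatin and doxorubicin damage DNA, while paclitaxel stabilizes microtubules. PR cells were therefore compared with CR and DR cells, taken as 2 libraries of 1 group, in a fit of the 7 parental and drug-resistant H460 libraries over 19770 genes. Against parental cells, the log2 fold change of CDKN1A was 3.75 in PR cells (SE 0.30, adjusted p = 0.000251) and 4.30 in CR and DR cells (SE 0.31, adjusted p = 0.000252). CDKN3 fell by 3.29 in PR cells (SE 0.52, adjusted p = 0.00252) and by 3.78 in CR and DR cells (SE 0.53, adjusted p = 0.00231). CDKN2C fell by 2.21 (adjusted p = 0.000998) and by 2.57 (adjusted p = 0.000909) on the same log2 scale. Leaving out PR 1 or PR 2 moved CDKN3 in PR cells to -4.38 or -2.68, each a value of 1 PR library that is assumed to vary like the other groups. Since both comparisons use the same 3 parental libraries, they are given side by side only.

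CDKN2D was -1.12 in PR cells (adjusted p = 0.0487) and -0.91 in CR and DR cells (adjusted p = 0.114). The call in PR cells sat at the threshold and was lost in 11 of 15 alternatives. CDKN1B was at 0.18 and -0.10 (adjusted p = 0.660 and 0.832). In PR cells 1 of the 5 genes thus passed as higher and 3 as lower, beside 19.4% and 13.3% of all genes (3841 and 2636 genes, or 4815 and 1705 with upper quartile scaling). In CR and DR cells the counts were 1 and 2, beside 12.5% and 9.22% of all genes.

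In the direct comparison of PR with CR and DR cells, none of the 5 genes passed by edgeR. The difference for CDKN1A was -0.55 on the log2 scale, with a 95% interval of -1.26 to 0.17 (adjusted p = 0.509). It was 0.49 for CDKN3 (interval -0.63 to 1.62), 0.37 for CDKN2C (-0.25 to 0.98), 0.28 for CDKN1B (-0.44 to 1.00) and -0.21 for CDKN2D (-1.12 to 0.70). The intervals of CDKN1A and CDKN2D include differences of more than 2-fold toward lower levels in PR cells. Those of CDKN3 and, just barely, CDKN1B include such differences toward higher levels. Over all genes edgeR called 0 of 19770 (0.0%), with 2479 at an unadjusted p under 0.05, while DESeq2 called 420 and limma 101 of the 12755 it tested.

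Each drug was also read on its own against the parental mean, without a test. CDKN1A was 24.8-fold higher in CR, 13.0-fold and 18.9-fold in PR 1 and 2, and 15.3-fold in DR cells. CDKN3 was 14.0-fold lower in CR, 5.70-fold and 17.7-fold lower in PR 1 and 2, and 13.0-fold lower in DR cells. The 2 PR libraries therefore held both the smallest and the largest difference for CDKN3. CDKN2C was 6.66-fold lower in CR, 3.62-fold and 4.46-fold lower in PR, and 4.89-fold lower in DR cells. In CR cells 3 of the 5 genes were more than 2-fold apart from the parental mean, beside 21.6% of all genes with enough signal. In DR cells it was 4 of 5, CDKN2D being 2.27-fold lower, beside 19.1%.

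**Figure D3:**
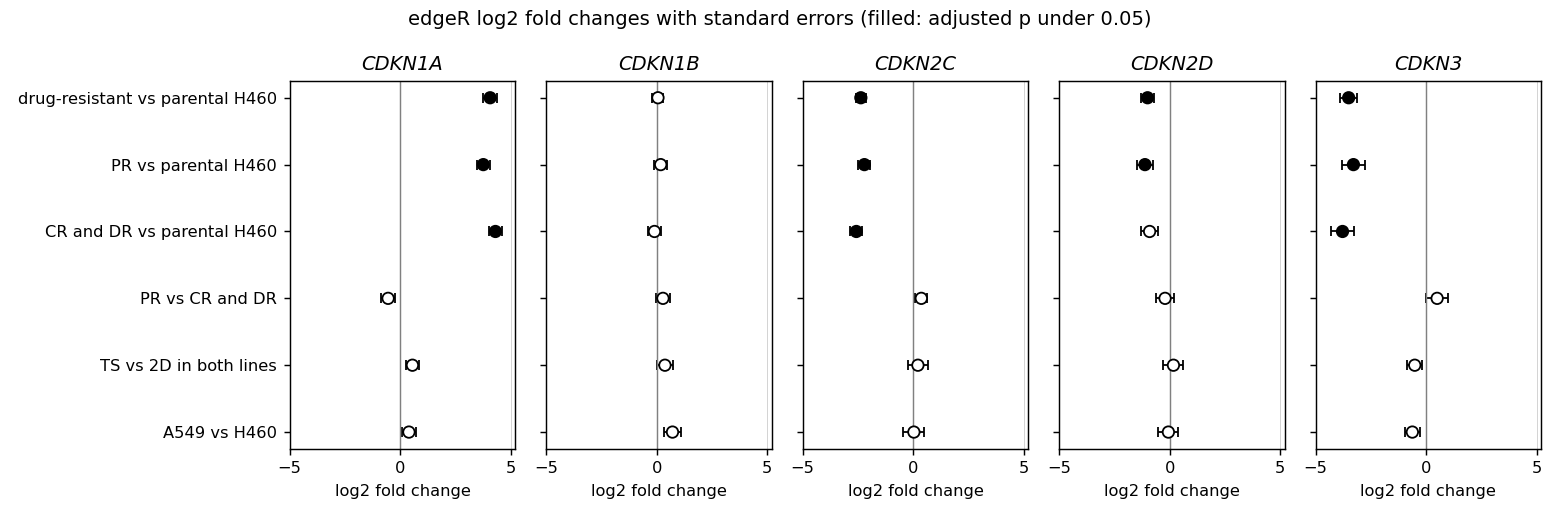
edgeR log2 fold changes of 5 genes in 6 comparisons, with bars of 1 standard error and filled points at an adjusted p under 0.05. CDKN1A lies at 3.75 to 4.30 in the 3 drug comparisons, CDKN2C and CDKN3 lie between -2.21 and -3.78, and no gene is filled in the comparisons of drugs, cultures or lines.

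The partners and regulators of the inhibitors were read from lists, by the count of genes that passed and the median log2 fold change. Over all genes the median was 0.06, with 18.5% passing as higher and 15.3% as lower, beside which each count below stands. The sign of the median of each list described here did not change with library size or upper quartile scaling except where stated. Of 12 cyclins and CDKs, 8 fell (7 with upper quartile scaling), 2 rose and 2 did not pass, with a median of -1.38. The largest decreases were those of the mitotic cyclins CCNB2 and CCNB1 and of the S-phase cyclin CCNA2, at -4.03, -3.54 and -3.45 on the log2 scale. CDK2, the main target of p21 and p27, fell from 24.4 ± 7.94 to 6.83 ± 0.97 FPKM, and CDK4, the target of INK4 proteins, from 78.5 ± 29.4 to 41.6 ± 4.97 (SD, n = 3 and 4). CDK6 did not pass (log2 fold change -0.60, adjusted p = 0.0728 by edgeR). The D-type cyclins went different ways.

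CCND1, which activates CDK4 and CDK6, was at 33.0, 17.3 and 17.1 FPKM in parental and at 105.5 in CR, 71.97 and 84.4 in PR, and 102.6 in DR libraries. It rose by 1.92 on the log2 scale (SE 0.30, adjusted p = 0.00131 by edgeR). CCND2 rose by 3.12 (adjusted p = 0.0196) from a level near 0, at most 0.193 FPKM in any library. CCND3 fell by 0.66 (adjusted p = 0.0357).

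Among 13 RB family and E2F genes, 7 fell and none rose (15.3% and 18.5% of all genes), with a median of -0.59. E2F8 (-3.12), E2F2 (-2.61) and RBL1 (-1.73) had the largest decreases, and RBL1 encodes p107, a pocket protein that binds E2F. At the other end E2F6, TFDP2 and RBL2 had log2 fold changes of 0.15, -0.07 and -0.12, and did not pass. With upper quartile scaling 5 fell. RB1 was at -0.59 (adjusted p = 0.0419 by edgeR) over all drugs, and did not pass in PR cells (-0.64, adjusted p = 0.0756) or in CR and DR cells (-0.56, adjusted p = 0.134).

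The SCF-SKP2 ligase and its cofactors mark p27 for destruction. Of 6 genes listed for it, 5 fell (4 with upper quartile scaling), with a median of -1.55, where 15.3% of all genes passed as lower. SKP2, the subunit that recognizes p27, was at 38.1, 30.1 and 15.8 FPKM in parental and 3.46 in CR, 7.09 and 2.38 in PR, and 3.31 in DR libraries (log2 fold change -2.82, SE 0.38, adjusted p = 0.000625 by edgeR). The groups did not overlap. CKS2 and CKS1B, small proteins that assist in this recognition or bind CDKs, fell by 2.73 and 2.38 on the log2 scale. SKP1 did not pass (0.11, adjusted p = 0.704). Protein levels of p27 were not measured.

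All 16 proliferation genes fell, from -1.10 for PCNA and -1.67 for TYMS to -3.84 for BUB1 and -3.99 for TOP2A, with a median of -2.75. Their summed FPKM was 873.1 to 1321 in parental and 184.0 to 339.4 in drug-resistant libraries. The proliferation marker MKI67 was at 33.8, 19.9 and 25.8 FPKM in parental, 1.012 in CR, 6.15 and 0.655 in PR 1 and 2, and 1.22 in DR cells. PR 1 was thus the highest of the drug-resistant libraries for MKI67 as for CDKN3. The part of proliferation in the lower CDKN3 and CDKN2C was not tested.

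**Figure D4:**
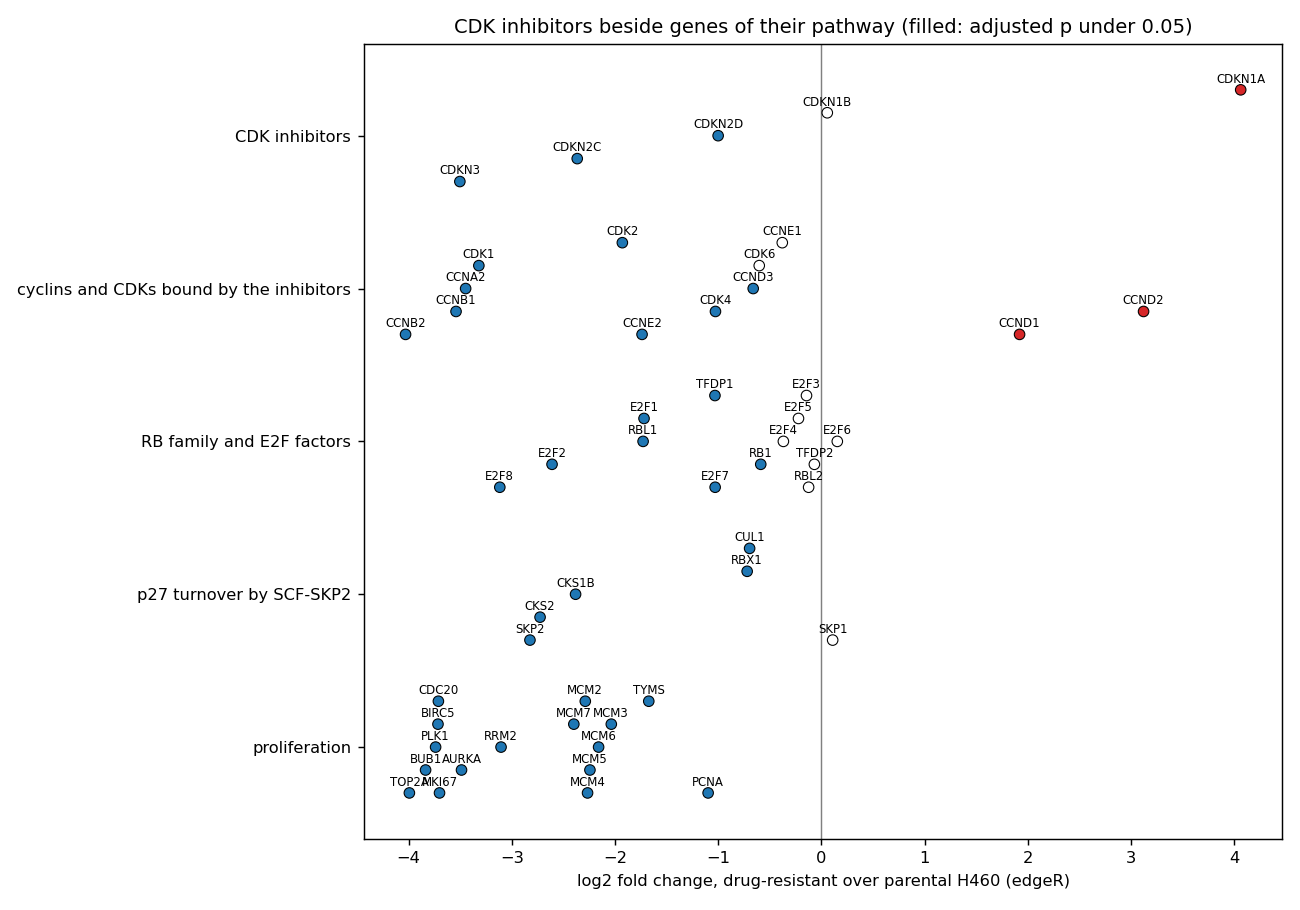
Log2 fold changes by edgeR of drug-resistant over parental H460 cells for the CDK inhibitors and 4 lists of related genes, 1 point per gene, filled red (higher) or blue (lower) at an adjusted p under 0.05 and open otherwise, with vertical offsets for legibility only. CDKN1A at 4.06 lies at the right end, beyond CCND2 and CCND1, and CDKN3 at -3.50 lies at the left end among the mitotic cyclins and proliferation genes.

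The genes around CDKN2A and CDKN2B on chromosome 9 were read as well. CDKN2B-AS1, the antisense RNA of the locus, was at 0 in all 10 libraries. MTAP, the neighbouring methionine salvage gene, was at 14.99, 12.5 and 9.81 FPKM in parental, 7.06 in CR, 8.09 and 5.39 in PR, 6.77 in DR and 13.8 in H460 TS cells. A549 cells held only 1.05 (2D) and 1.06 (TS). It was lower in A549 by 3.62 on the log2 scale (SE 0.28, adjusted p = 0.000436 by edgeR), the 2 lines thus differing at this neighbour while CDKN2A and CDKN2B were at 0 counts in the 2D and TS libraries of both. In drug-resistant cells 2 of the 6 tested neighbours fell, MTAP by 0.97 and ELAVL2 by 1.13, beside 15.3% of all genes. The median was -0.17 and turned to 0.00316 with upper quartile scaling. In PR cells 3 of 6 fell (2 with upper quartile scaling), with FOCAD at -0.66 (adjusted p = 0.0456 by edgeR), beside 13.3% of all genes. In CR and DR cells 2 of 6 fell (1 with upper quartile scaling), beside 9.22%. Of the 4 imprinted neighbours of CDKN1C tested, none passed in drug-resistant cells (median 0.14). In PR cells 1 of 5 tested passed as higher, beside 19.4% of all genes. It was KCNQ1OT1, at 0.88 on the log2 scale (adjusted p = 0.0323 by edgeR), with at most 0.253 FPKM in any library. In CR and DR cells KCNQ1OT1 was at -0.69 and did not pass (adjusted p = 0.102 by edgeR).

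Neither TS culture nor the cell line gave a difference in the inhibitors that passed the test. CDKN1A was at 53.2 FPKM in H460 TS cells, above all 3 parental libraries, and at 39.2 in A549 TS against 46.6 in A549 2D cells, so it pointed opposite ways in the 2 lines. In H460 TS cells it was 2.02-fold above the parental mean, with log2 ratios of 0.69 to 1.36 against single parental libraries. CDKN1A was the only 1 of 5 inhibitors past 2-fold there, beside 7.57% of all genes. These values from TS cells remained far below those of drug-resistant cells.

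CDKN2C was at 5.32 FPKM in H460 TS cells, below the parental libraries, and at 10.9 in A549 TS against 4.58 in A549 2D cells, a 2.37-fold higher level. It was the only 1 of 5 inhibitors more than 2-fold apart in A549 TS cells, beside 15.3% of all genes. CDKN1B was at 4.88 in H460 TS cells, inside the parental range, and at 11.3 in A549 TS against 6.34 in A549 2D cells. CDKN2D was at 2.79 in H460 TS cells, with 3.86 in TS against 2.49 in 2D culture of A549. CDKN3 was at 47.6 in H460 TS, inside the parental range, and at 28.4 in A549 TS against 44.9 in A549 2D cells. CDKN1C had 6 reads in H460 TS cells. In A549 it had 12 reads in 2D and 29 in TS culture, the highest of all 10 libraries.

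With both lines in 1 fit and the line as a covariate, the TS effect was 0.55 for CDKN1A (95% interval -0.18 to 1.29), 0.37 for CDKN1B, 1.58 for CDKN1C, 0.21 for CDKN2C, 0.17 for CDKN2D and -0.52 for CDKN3 (-1.31 to 0.27). None of the 6 genes tested passed by edgeR, with adjusted p = 0.901 as the lowest, and 35 of 18372 genes did (0.191%). For CDKN1A, CDKN1B, CDKN2C and CDKN2D the direction changed when a TS or an A549 library was left out.

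The interaction of line and culture, with the spread taken from the 3 parental libraries alone, was 1.83 for CDKN2C (SE 0.60, 95% interval 0.46 to 3.21), at an unadjusted p = 0.0147 and an adjusted p = 0.340 by edgeR. For CDKN1A it was -1.20 (SE 0.57, adjusted p = 0.643). None of the 6 passed, beside 0.495% of all genes.

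Between the lines, none of the 6 genes differed past the threshold, while 23.9% of all genes did. The log2 difference of A549 from H460 was 0.39 for CDKN1A (95% interval -0.34 to 1.13), 0.71 for CDKN1B (-0.16 to 1.59), 0.03 for CDKN2C, -0.06 for CDKN2D and -0.63 for CDKN3 (-1.42 to 0.17). CDKN1C had the widest interval, at 2.51 (-0.22 to 5.24, adjusted p = 0.164 by edgeR), from 0 to 6 reads in H460 and 12 and 29 in A549 libraries. The order of levels in the parental libraries was CDKN3, CDKN1A, CDKN2C, CDKN1B, CDKN2D and CDKN1C, with means of 66.9, 26.3, 7.37, 4.96, 3.23 and 0.00933 FPKM. CDKN2C and CDKN1B overlapped in range, as did CDKN1B and CDKN2D, while the ranges of CDKN3, CDKN1A and CDKN2C did not overlap. In the 4 drug-resistant libraries CDKN1A stood first.

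Across all 10 libraries CDKN2C and CDKN3 lay lower in each drug-resistant library than in any of the other 6, and CDKN1A lay higher. The share of all genes that set these libraries apart in this way was not counted. The highest drug-resistant values were 2.04 FPKM for CDKN2C and 11.7 for CDKN3, both in PR 1, and the lowest of the others were 4.58 for CDKN2C, in A549 2D, and 28.4 for CDKN3, in A549 TS. A549 TS held the highest CDKN2C of all, at 10.9, with the lowest CDKN3 of these 6.

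**Figure D5:**
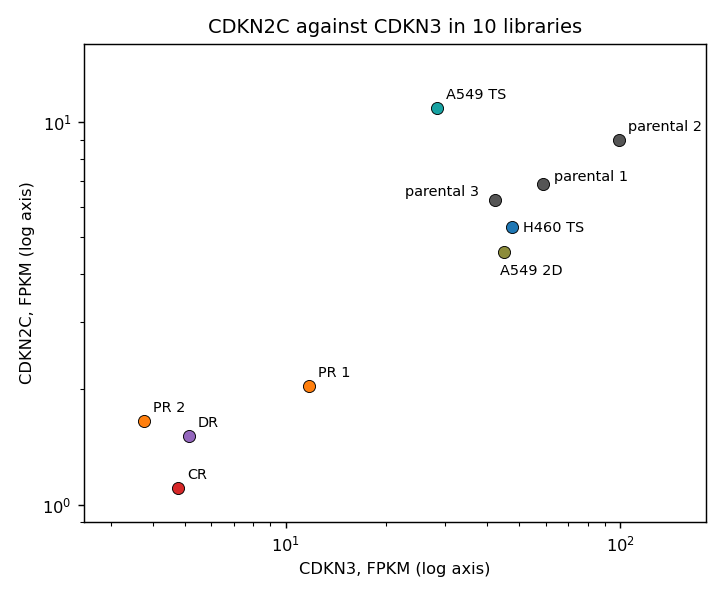
CDKN2C against CDKN3 in FPKM, both on log axes, 1 labelled point per library. The 4 drug-resistant libraries lie at 2.04 or below for CDKN2C and 11.7 or below for CDKN3, and A549 TS lies at the top with a CDKN2C of 10.9 and a CDKN3 of 28.4.

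The genes with the profile most like each inhibitor were sought among 13439 genes, by the root mean square difference of the centred log2(FPKM + 1) over the 10 libraries, for the 3 inhibitors whose range was at least 2 on that scale. For CDKN3 they were NUF2 (0.18), NUSAP1 (0.19) and SPC25 (0.21). NUF2 was at 13.5 to 37.9 FPKM in parental and at 0.576 to 3.601 in drug-resistant libraries, with PR 1 the highest of these as for CDKN3. Since the genes were chosen by their profile, such likenesses, here and below, follow from the choice. For CDKN2C they were LOC112694756 (0.25), DBI (0.29) and NRM (0.31). CDKN1A had no profile as near, and its closest genes were H1-2 (0.44), MEGF6 (0.57) and GDF15 (0.57). H1-2, a linker histone gene, was at 4.39 to 12.3 FPKM in parental and 73.7 to 158.3 in drug-resistant libraries.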

How the data were processed

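Gene expression was measured by RNA sequencing in 10 libraries. The authors deposited a whole-number read count, an FPKM and a TPM per gene. Per the labels' processing notes, reads were handled with bcl2fastq 1.8.4, Trimmomatic, HISAT2 2.1.0 and StringTie 2.1.3b on GRCh38. How reads shared between genes were treated, and whether strand was used, is not given in the sources used here. The deposited counts were tested with edgeR 4.0.16 (TMM factors, filterByExpr, quasi-likelihood F-test, Benjamini-Hochberg adjustment over all genes tested, threshold 0.05) in R 4.3.3. The 4 drug-resistant libraries were taken as samples of 1 group, so the spread includes differences between drugs. Single libraries were compared by the log2 ratio of the deposited FPKM, without a test, with more than 2-fold counted as apart. DESeq2 1.42.0, limma 3.58.1 on log2(FPKM + 1), other scalings, no filter, and each library left out were alternatives. The fits were checked on simulated counts with the same dispersion for every gene, so the check does not show error rates at the spread of the real libraries.

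The genes, lists and tests were chosen with earlier results of these data known. From each list, the 3 highest and 3 lowest log2 fold changes in drug-resistant cells could be named, and other genes of the lists were named after their values were seen. Results of 1 list are not reported here. The deposited TPM values were used for shares between genes. Promoter sequences and positions are those of RefSeq on GRCh38.p14. Same-numbered PR and parental libraries deviated together with a correlation of 0.155 over 13439 genes, from 2 pairs, and the labels tie them by number only. Replicates differed by more than sampling noise, at a chi-square per gene of 80.8 or more. The inhibitors that were tested had at least 162 reads in each library, apart from CDKN1C. Tables were handled in Python 3.11.15 (pandas 2.3.3, numpy 2.4.6, scipy 1.17.1), and matplotlib 3.10.9 drew the figures.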

Additional observations from a re-analysis of the deposited data

Results flagged for a closer look

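The values of each gene were examined within sets of 4 libraries, which made 19 combinations of gene and set. In 2 of them a library stood apart from the rest. Chance gives about 1 in 20 for independent, continuous values, but the sets share libraries. Where all values but 1 are 0, as for CDKN2A, a flag is certain. CDKN3 in PR 1, at 11.7 FPKM, stood above the other drug-resistant libraries, which were at 3.78 to 5.13. Its gap was 0.8305 of the range of the 4 values, on FPKM without logs, and only just passed the cut-off. PR 1 is also the only drug-resistant library whose name has no hyphen, and it held the highest MKI67 of the 4, at 6.15 FPKM against 0.655 to 1.22. Without PR 1, the edgeR log2 fold change of CDKN3 in drug-resistant against parental cells was -3.94 (adjusted p = 6.91e-05). CDKN2A in DR, at 0.0229 FPKM from 4 reads, was the only value above 0 for that gene, and DR was the deepest library, at 89541774 reads.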

How the results depend on the processing

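CDKN1A, CDKN2C and CDKN3 kept their direction and their call in all alternatives of the 3 comparisons of drug-resistant with parental cells, which were 13 for all drugs, 15 for PR and 12 for CR and DR cells. Over the alternatives for all drugs, the log2 fold change was 3.81 to 4.24 for CDKN1A, -2.49 to -1.70 for CDKN2C and -3.94 to -3.17 for CDKN3. The value nearest 0 for CDKN2C came from limma on log2(FPKM + 1), a scale that understates the change of low genes. CDKN2D lost its call in 6 of 13 alternatives for all drugs and in 11 of 15 for PR cells (adjusted p = 0.0136 to 0.208), and gained it in CR and DR cells without parental 1 (-1.19, adjusted p = 0.0298).

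The values that changed sign belonged to genes that did not pass. CDKN1B in CR and DR cells was 0.0237 with upper quartile factors, and CDKN2C in A549 against H460 was -0.00282. Leaving out 1 library at a time moved CDKN1B between -0.139 and 0.363 for all drugs and between -0.314 and 0.216 for CR and DR cells. For PR against CR and DR cells it moved CDKN2D between -0.511 and 0.112 and CDKN3 between -0.599 and 1.10. For TS against 2D cells the ranges were -0.207 to 1.00 for CDKN1A, -0.00503 to 0.874 for CDKN1B, -0.581 to 1.26 for CDKN2C and -0.223 to 0.693 for CDKN2D. For A549 against H460 they were -0.336 to 0.849 for CDKN1A, -0.762 to 1.10 for CDKN2C and -0.447 to 0.494 for CDKN2D, and for the interaction -0.505 to 0.0569 for CDKN3. Where this left a group with 1 library, that library is assumed to vary like the others. When a TS library or A549 2D was left out, the TS effect came from 1 line alone. Beyond that, the cause of these changes was not tested. With PR and parental 1 and 2 alone and the replicate number as a replicate block, 3 inhibitors passed, CDKN1A at 3.63, CDKN2C at -2.29 and CDKN3 at -3.70, and CDKN2D did not (-0.89, adjusted p = 0.0996 by edgeR). The same 3 passed in these 4 libraries without the block, and the genes called were 6775 with it and 6661 without it.

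Counts over all genes moved by more than 1.5 times in these cases. Fewer genes were tested by limma than by edgeR, at 12755 against 19770 in the fit that separates the drugs. In the TS and line fits the numbers tested were 12674 and 18372. PR against CR and DR cells gave 0 by edgeR, 420 by DESeq2, 101 by limma, 509 without the filter and 66 without parental 1. PR against parental cells gave 6477, against 3759 by limma, 3211 without PR 1 and 1580 without PR 2. CR and DR cells gave 4292, against 1805 without CR and 1314 without DR. TS cells gave 35, against 537 by DESeq2 and 6 to 348 with 1 library left out. A549 against H460 gave 4384, against 2644 without parental 2 and 1859 without A549 2D. The interaction gave 91, against 519 by DESeq2, 27 by limma, 0 without the filter, 595 without parental 1 and 160 without parental 2.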
